A study of Bos taurus with 15 samples.

Results

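The genes described are those of 4 endothelial adhesion molecules that let leukocytes leave the blood, E-selectin (SELE), P-selectin (SELP), VCAM1 and ICAM1, in the endometrium of cyclic and early pregnant cows. Every probe other than a control whose gene name was one of these symbols, or whose description named the gene, was taken, which gave 1 probe for each of the 4 genes out of 15208 probes, of which 6246 could be given a symbol (6025 distinct genes). The set was chosen by way of measured values: SELE was already known, from its signals in the same arrays, as one of the largest falls between P18 and NP18. The values of all 4 genes in that comparison, and of SELE in any comparison that uses the day 18 arrays, are therefore given as a description with no test. The tests of SELP, VCAM1 and ICAM1 between the days share arrays with that comparison, so their p-values are not independent of the choice.

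Total RNA of caruncular endometrium from Japanese Black cows was labeled with 1 dye and hybridized to a custom bovine oligonucleotide array, 1 array per cow. The groups were non-pregnant cows on day 15 (NP15, 4 cows), pregnant cows on day 15 (P15, 3 cows), non-pregnant cows on day 18 (NP18, 4 cows) and pregnant cows on day 18 (P18, 4 cows). Days were counted after artificial insemination, the tissue came from the horn on the side of the corpus luteum, and a cow was called pregnant when trophoblast was seen by eye in the opened horn, so that a non-pregnant cow could have been inseminated without carrying a visible conceptus. No age, parity or treatment of the animals is given in the sources used here. The arrays of P15, NP18 and P18 were each scanned on 1 day of their own and those of NP15 on 3 other days. No slide or scan day was shared between groups, so that neither can be told apart from group in any comparison. Only NP15 held more than 1 scan day. A fit with scan day as a random block, given below, therefore cannot separate scan day from group, and nothing is read from calls lost in it.

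The selectins are lectins on the vessel wall that catch flowing leukocytes by their sugars and let them roll. SELE is made by endothelium mainly after activation by inflammatory signals such as TNF or IL1, whereas SELP is also stored in granules of endothelial cells and of platelets and moves to the surface within a short time. VCAM1 and ICAM1 belong to the immunoglobulin superfamily and hold the rolling cell firmly, VCAM1 through the leukocyte integrin of ITGA4 and ITGB1 and ICAM1 through that of ITGAL and ITGB2. VCAM1 and ICAM1 are also found on stromal and immune cells.

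The value of each gene rests on 1 probe of 60 bases, and the last 30 bases of each are shown as a part of what the arrays read. The capitals mark AATAAA, the letters of the usual polyadenylation signal.
SELE: tggctctgtaaagtttgatAATAAAcatgt
SELP: ttgatattttgctgAATAAAgtctgtatcc
VCAM1: ggagtaatttcttgatgtgtacatacaata
ICAM1: ctggtgacatgcccagagatgacccactga
AATAAA stood in the last 30 bases of the SELE and SELP probes and in 9.49% of all 15208 probes, and on the other strand in 1.95%. No pair of the 4 probes shared a run longer than 8 bases anywhere in their 60 bases. A match of these letters is a description of the probe and not of a site in use. In the RefSeq annotation of the ARS-UCD2.0 assembly, SELE and SELP lie on chromosome 16, VCAM1 on chromosome 3 and ICAM1, with ICAM4 and ICAM5 next to it, on chromosome 7.

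Signals are given in array medians: the processed signal of the probe divided by the median of all probes on that array. The levels of different probes cannot be set against each other. All 4 genes passed the filter for testing, which asked that 3 or more of the 15 arrays have a signal well above background. SELP, VCAM1 and ICAM1 were well above background in all 15 arrays. SELE was well above background in 3 of 4 NP15, 3 of 3 P15, 4 of 4 NP18 and 2 of 4 P18 arrays.

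SELE was highest in the non-pregnant cows of day 18 and close to the detection limit in the pregnant cows of the same day. In NP18 its signals were 1.64, 1.99, 2.28 and 2.73 array medians, with a mean of 2.16 ± 0.460 (SD, n = 4). In P18 they were 0.0602, 0.179, 0.187 and 0.0891, with a mean of 0.129 ± 0.0638 (SD, n = 4), and the first and last of these were not well above background. Every NP18 array lay above every P18 array, and the lowest NP18 array was above all arrays of the other groups. The log2 difference P18 minus NP18 was -4.20 with a standard error (SE) of 0.93, or 18.3-fold lower in P18. In that comparison 5.75% of all 13164 probes tested were called, meaning an adjusted p below 0.05 and a fold over 2, 2.1% were called lower and 5.8% had every P18 array below every NP18 array. Nothing is read from these shares for SELE, since this comparison led to its choice. The lowest signal that counted as well above background was 0.102 to 0.180 array medians in P18 and 0.0660 to 0.0950 in NP18, and the SELE signals of P18 lay around it. With each value raised to that limit the log2 difference was -3.83.

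**Figure D1:**
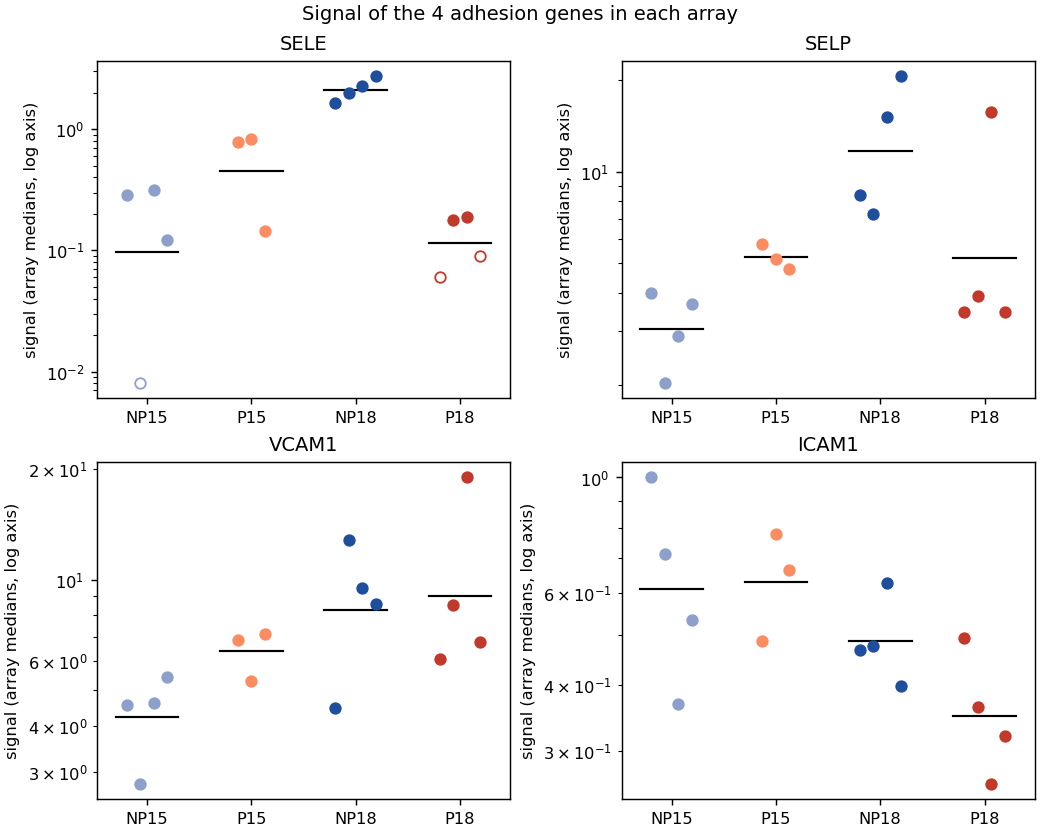
Signal of SELE, SELP, VCAM1 and ICAM1 in each of the 15 arrays (vertical log axes, in array medians), by group. Each point is 1 cow, open points were not well above background, and the black line is the mean on the log scale. NP18 stands above all other groups for SELE, 1 P18 cow stands with the NP18 cows for SELP, and the groups of VCAM1 and ICAM1 mostly overlap.

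On day 15 SELE was low and scattered. In NP15 its signals were 0.288, 0.00812, 0.314 and 0.121 array medians (mean 0.183 ± 0.144, SD, n = 4), where replicate 2 was not well above background and carried a surrogate value. In P15 they were 0.779, 0.838 and 0.145 (mean 0.587 ± 0.384, SD, n = 3). Replicates 1 and 2 of P15 were above all NP15 arrays and replicate 3 lay among them. The log2 difference P15 minus NP15 was 2.23 (SE 1.00), which did not pass limma's test (adjusted p = 0.315), and the exact two-sided permutation test gave p = 0.229, where 0.0286 is the smallest p this design allows. Leaving out NP15 replicate 2 moved the difference to 1.04, and background correction by normexp, another way of removing local background, moved it to 0.93.

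From day 15 to day 18 the difference of SELE had opposite signs in non-pregnant and pregnant cows. NP18 minus NP15 was 4.45 on the log2 scale (SE 0.93, 21.8-fold), and every NP18 array was above every NP15 array. Without NP15 replicate 2 this difference was 3.26, and under normexp it was 2.82. P18 minus P15 was -1.98 (SE 1.00), and the highest P18 arrays overlapped with the lowest P15 array. P18 minus NP18 less P15 minus NP15 was -6.43 (SE 1.37). These differences share the day 18 arrays that led to the choice of SELE, and they are not tested.

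SELP, the other selectin of endothelium, was also highest in NP18, over a smaller range. Its signals were 4.02, 2.04, 2.89 and 3.67 array medians in NP15 (mean 3.15 ± 0.881, SD, n = 4) and 8.38, 7.25, 15.1 and 20.5 in NP18 (mean 12.8 ± 6.19, SD, n = 4). Every NP18 array was above every NP15 array. SELP rose 3.84-fold from NP15 to NP18, a log2 difference of 1.94 (SE 0.46), and was the only one of the 3 members tested in that comparison that was called (limma, adjusted p = 0.0177). The NP18 arrays also stood in the comparison that led to the choice of the set, so this p is not independent of that choice. Over all probes 7.16% were called in this comparison, 2.89% of all as higher, and in 5.96% every NP18 array was above every NP15 array. The call was lost without NP15 replicate 2 (adjusted p = 0.0530), without NP18 replicate 4 (adjusted p = 0.0538) and when scan day entered as a random block (adjusted p = 0.269).

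On day 15 SELP was 5.77, 5.18 and 4.79 array medians in P15 (mean 5.25 ± 0.494, SD, n = 3), and every P15 array was above every NP15 array. The log2 difference was 0.78 (SE 0.49), which did not pass limma's test (adjusted p = 0.486), and the exact permutation test gave p = 0.0571. None of the 4 members was called by limma on day 15 (1 of 4, SELE, had an unadjusted p below 0.05), where 0.798% of all probes were called and 5.93% had every P15 array above every NP15 array.

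On day 18 the SELP signals of P18 were 3.47, 3.91, 15.7 and 3.46 array medians (mean 6.64 ± 6.06, SD, n = 4). Of the P18 arrays, 3 of 4 were below all NP18 arrays, and replicate 3 was as high as the higher NP18 arrays. The log2 difference P18 minus NP18 was -1.17 (SE 0.46), and it was -1.70 (SE 0.34) without P18 replicate 3. P18 minus P15 was -0.005 (SE 0.49, limma adjusted p = 0.995) and turned positive when P15 replicate 1 or P18 replicate 1, 2 or 4 was left out, up to 0.19. Replicate 3 also had the highest P18 signal of VCAM1 and of SELE and the lowest of ICAM1. Its array had the fewest probes well above background of all 15 (65.6%) and the lowest median signal of its group (407). The part of array quality in its values was not tested.

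VCAM1, the counter-receptor of the ITGA4 integrin, was called in none of the 3 comparisons tested. Its signals were 4.58, 2.79, 4.62 and 5.44 array medians in NP15 (mean 4.36 ± 1.12, SD, n = 4) and 6.87, 5.32 and 7.13 in P15 (mean 6.44 ± 0.982, SD, n = 3). They were 4.48, 12.8, 9.48 and 8.56 in NP18 (mean 8.83 ± 3.43, SD, n = 4) and 6.08, 8.52, 18.9 and 6.77 in P18 (mean 10.1 ± 5.99, SD, n = 4). NP15 was the lowest group, and all groups that are next to each other in level overlapped.

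The log2 difference of VCAM1 between NP18 and NP15 was 0.96 (SE 0.37, limma adjusted p = 0.105), and 3 of 4 NP18 arrays were above all NP15 arrays. Without NP18 replicate 1, the low array of that group, it was 1.26 (limma adjusted p = 0.0300). P15 minus NP15 was 0.59 (SE 0.40, limma adjusted p = 0.517), with an exact permutation p = 0.0857 that became 0.0286, the smallest possible, when arrays were scaled by the 75th percentile. P18 minus P15 was 0.50 (SE 0.40, limma adjusted p = 0.415), and 11.9% of all probes were called in that comparison. P18 minus NP18 was 0.13 (SE 0.37), with both groups spread over the same range.

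ICAM1, the counter-receptor of the ITGB2 integrins, was the only member whose mean was lower on day 18 than on day 15 in both cyclic and pregnant cows. Its signals were 1.00, 0.712, 0.368 and 0.533 array medians in NP15 (mean 0.653 ± 0.271, SD, n = 4) and 0.487, 0.779 and 0.666 in P15 (mean 0.644 ± 0.147, SD, n = 3). They were 0.468, 0.476, 0.628 and 0.399 in NP18 (mean 0.493 ± 0.0965, SD, n = 4) and 0.492, 0.364, 0.259 and 0.320 in P18 (mean 0.359 ± 0.0987, SD, n = 4). P18 was the lowest group, and 3 of 4 P18 arrays were below all P15 arrays and below all NP18 arrays.

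For ICAM1, P18 minus P15 was -0.86 on the log2 scale (SE 0.32) and did not pass limma's test (adjusted p = 0.0830). Scaling by the 75th percentile gave -1.15 (adjusted p = 0.0370), a call, and that scaling also moved the median of all probes in this comparison from 0.12 to -0.18. NP18 minus NP15 was -0.33 (SE 0.30, limma adjusted p = 0.497) and P15 minus NP15 was 0.05 (SE 0.32, limma adjusted p = 0.964), with an exact permutation p = 0.943. P18 minus NP18 was -0.48 (SE 0.30).

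**Figure D2:**
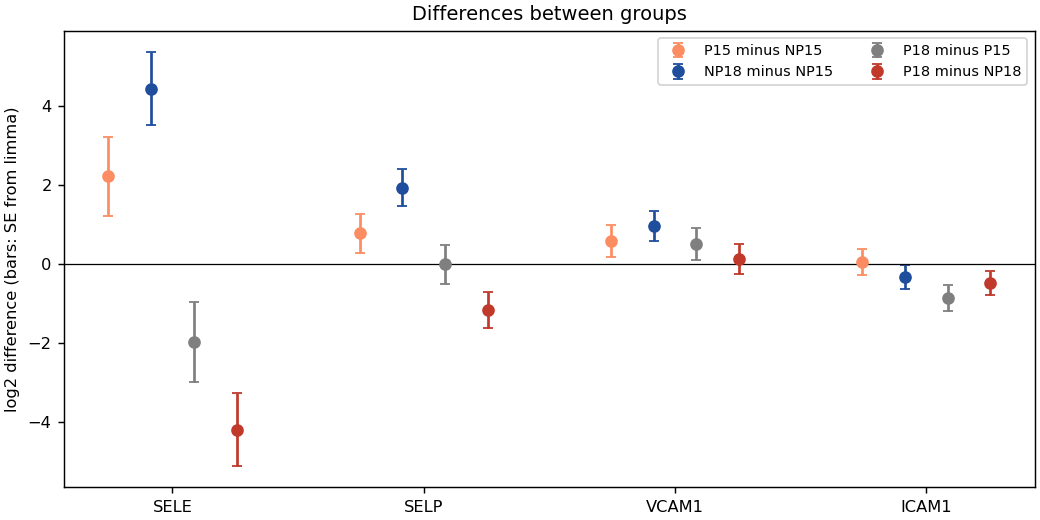
Log2 differences between groups of the 4 adhesion genes with the SE from limma (error bars), for the comparisons of pregnancy within a day and of day within a status. The differences of SELE run from -4.20 to 4.45, and those of ICAM1 lie between -0.86 and 0.05.

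By mean log2 level SELE and SELP had the same order of groups, NP18, P15, P18 and NP15. For SELE only the step from NP18 to P15 had no overlap of arrays. For SELP the arrays of NP18 and P15 and of P15 and NP15 did not overlap, while P18 overlapped with NP18 through replicate 3. VCAM1 ran P18, NP18, P15 and NP15, and ICAM1 ran P15, NP15, NP18 and P18. Over the 15 arrays, which share their 4 groups and scan days, Pearson's r of the log2 signals was 0.74 for SELE with SELP, 0.69 for SELP with VCAM1 and -0.55 for VCAM1 with ICAM1. After each group's mean was subtracted these were 0.44, 0.66 and -0.35.

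Tissue pieces hold many cell types, and in these bulk samples fewer endothelial cells and less RNA of a gene per cell cannot be told apart. Of 17 endothelium markers listed, 12 were on the array, and limma called none between the groups of day 15 or between NP18 and NP15, where 1 and 2 had an unadjusted p below 0.05. In P18 against NP18, 3 of 12 were called lower and none higher, beside 2.1% of all probes called lower, with a median of -0.50 on the log2 scale against 0.07 for all probes. These were PECAM1, a junction molecule through which leukocytes pass (-1.54, SE 0.34, limma adjusted p = 0.0148), the receptor TIE1 (-1.87, SE 0.41, limma adjusted p = 0.0146), well above background in 1 of 4 P18 arrays, and the transcription factor SOX18 (-1.69, SE 0.32, limma adjusted p = 0.00689). In P18 against P15 the same 3 genes were called lower (PECAM1 -1.12, TIE1 -1.82 and SOX18 -1.79), beside 4.31% of all probes, with a median of -0.71 over the 12 markers against 0.12. When scan day entered as a random block, limma called 0 of the 12 in both comparisons, and 3 and 2 had an unadjusted p below 0.05. No group shared a scan day with another, so this fit cannot separate scan day from group. The summed signal of the 12 markers ran from 57.4 to 154 array medians in NP15, 86.6 to 124 in P15, 62.4 to 131 in NP18 and 60.5 to 96.7 in P18, and PLVAP was not above background in any P18 array.

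The mean log2 signal of the 8 endothelium markers that were well above background in all arrays was taken as a reference. That filter left out TIE1, CDH5, VWF and PLVAP, well above background in 1, 2, 2 and 0 of 4 P18 arrays. The reference was thus picked in part by the P18 signals, and whether it follows the amount of endothelium was not tested. Against it, SELE was lower in every P18 array than in every NP18 array, by -3.57 (SE 0.43). The SELE difference NP18 minus NP15 was 4.03 (SE 1.34) on that scale and that of SELP was 1.52 (SE 0.41), both without overlap of arrays. The P18 minus NP18 difference of SELP was -0.54 (SE 0.46) on that scale, with overlap. VCAM1 was higher in every P18 array than in every P15 array, by 1.17 (SE 0.33), and ICAM1 was at 0.15 (SE 0.39) in P18 minus NP18.

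**Figure D3:**
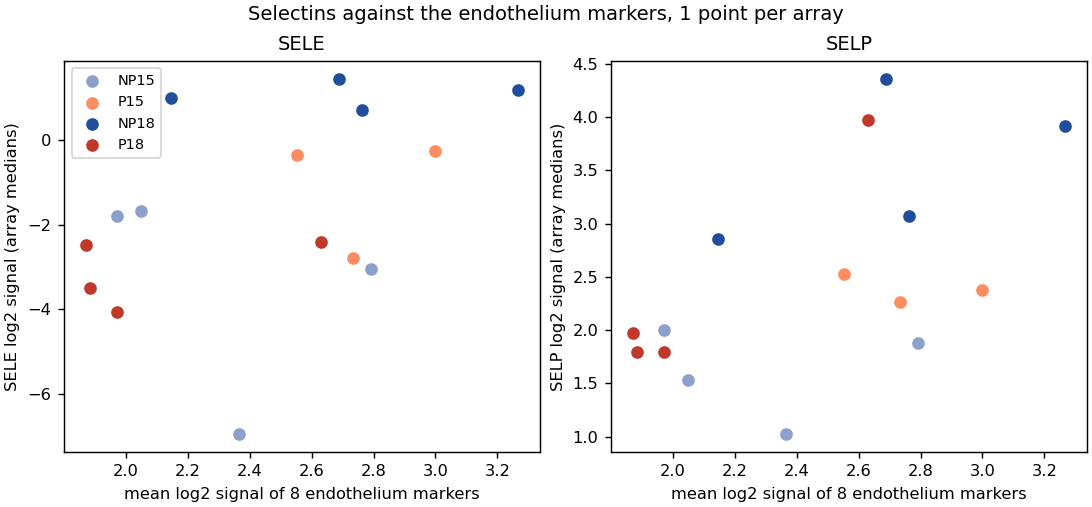
Log2 signal of SELE (left) and SELP (right) against the mean log2 signal of 8 endothelium markers, 1 point per array, colored by group. The NP18 arrays stand above the P18 arrays for SELE across the whole range of the markers, and the 1 P18 array with a high SELP signal has the highest marker mean of its group.

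The RNA of some markers of other cell types also differed in P18. The 10 genes of the trophoblast list on the array summed to 0.737, 141, 85.2 and 642 array medians in P18 replicates 1 to 4 and to no more than 1.62 in any other array. Of the 9 tested, 7 were called higher in P18 than in NP18 and 1 lower, the transcription factor ELF5 (-2.34, SE 0.58, limma adjusted p = 0.0262), which was well above background in all NP15 and NP18 arrays, at up to 1.40 array medians in NP18. IFNT2, TKDP1, TKDP4, PAG2, PAG8 and PAG11 reached the 3 arrays that the filter for testing asked for only with their P18 arrays. Their calls as higher in P18 were therefore in part fixed by that filter. Without ELF5, left out after its values were seen, the sums were 0.624 to 642 in P18 and no more than 0.266 elsewhere. P18 replicate 1, the array with the lowest sum, had the lowest SELE signal of its group (0.0602), and the SELE signals of the other P18 arrays were 0.179, 0.187 and 0.0891. The SELE signals of P18 replicates 1 and 4 were not well above background, so nothing is read from this order. Of the 6 smooth muscle markers on the array 3 were called lower in P18 than in NP18 (ACTA2, CNN1 and ACTG2). Over all probes 3.65% were called higher and 2.1% lower in P18 against NP18. Of the 7 stroma markers 1 was called lower, the collagen gene COL1A1 (-1.97, SE 0.38, limma adjusted p = 0.00759), and of the 6 epithelium markers none, where 1 had an unadjusted p below 0.05. In P18 against P15, 3 of 7 stroma markers were called lower (VIM, COL1A1 and COL3A1, with a median of -1.02 over the 7), 3 of 6 smooth muscle markers lower (ACTA2, CNN1 and DES), and of the epithelium markers EPCAM was called higher and CDH1 lower. There 7.58% of all probes were called higher and 4.31% lower. When scan day entered as a random block, limma called none of the markers of these 4 lists in either comparison. In that fit 8 of 9 trophoblast, 3 of 6 smooth muscle, 1 of 7 stroma and 0 of 6 epithelium markers had an unadjusted p below 0.05 in P18 against NP18. In P18 against P15 they were 7 of 9, 1 of 6, 2 of 7 and 2 of 6. Leukocyte markers (12 of 16 tested) gave no limma call in P18 against NP18, where 3 had an unadjusted p below 0.05 without the block. CD4, NKG7 and MS4A1 were not above background in any array of these 2 groups. PTPRC was well above background in 1 of 4 NP18 and 0 of 4 P18 arrays. The leukocyte marker mean of P18 replicate 3 was 0.82 on the log2 scale against 0.12 to 0.29 in the other P18 arrays, and its endothelium mean was 2.63 against 1.87 to 1.97. This was the array with the fewest probes well above background. Of 8 markers of platelets, which also hold SELP, 2 were on the array, and limma called none between P18 and NP18, where 1 had an unadjusted p below 0.05. The part of these cells in the differences of the 4 genes was not tested.

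Other genes of the adhesion pathway were taken in 5 lists: endothelial adhesion and junction molecules, leukocyte ligands and integrins, enzymes that make selectin ligands, cytokines and receptors that induce the adhesion genes, and NF-kB and other transcription factors. Of 89 genes listed 60 were on the array and 54 were tested. None was called by limma on day 15, where 2 had an unadjusted p below 0.05 and the methods' t-test without adjustment also gave 0. In NP18 against NP15, 4 of 54 (7.41%) were called, all higher, beside 7.16% of all probes. MADCAM1 of the endothelial list (-0.96, limma adjusted p = 0.0273) and the enzyme ST3GAL3 (-0.87, limma adjusted p = 0.0293) missed a call only by the fold limit. Both were lower in every NP18 array than in every NP15 array. The share of all probes lower in that way is not given here, and 5.96% were higher in that way, so nothing is read from this. In P18 against P15, 5 were called higher and 3 lower (14.8% of 54, beside 11.9% of all probes, 7.58% higher and 4.31% lower), and in P18 against NP18, 1 higher and 2 lower (5.56%, beside 5.75% of all probes, 3.65% higher and 2.1% lower). When scan day entered as a random block, limma called 0 of the 54 in each of these comparisons, and 10, 6 and 3 had an unadjusted p below 0.05 in NP18 minus NP15, P18 minus P15 and P18 minus NP18.

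Of the 12 endothelial adhesion and junction genes tested, 2 rose from NP15 to NP18. ALCAM, an adhesion molecule of activated endothelium and leukocytes, rose by 1.88 on the log2 scale (SE 0.42, limma adjusted p = 0.0139), and CD47, which takes part in leukocyte passage, by 1.14 (SE 0.33, limma adjusted p = 0.0392). AOC3, an amine oxidase on vessel walls that also binds leukocytes, was 0.700, 0.455, 0.560 and 0.548 array medians in P18 and 1.54, 0.901, 1.71 and 1.56 in NP18. These groups did not overlap, and 5.8% of all probes had every P18 array below every NP18 array. AOC3 fell in P18 against NP18 (log2 difference -1.31, SE 0.22, limma adjusted p = 0.00322) and against P15 (-1.86, SE 0.24, limma adjusted p = 0.000665). Its difference between pregnant and non-pregnant cows was -1.50 on day 18 relative to day 15 (SE 0.33, limma adjusted p = 0.0295), an interaction for which 2.72% of all probes were called. PECAM1 also fell in P18 against P15 (-1.12, SE 0.37), where its limma adjusted p of 0.04996 lay at the threshold. CD47 rose by 1.42 in P18 against P15 (SE 0.35, limma adjusted p = 0.0165), so the genes of the vessel wall list did not move one way.

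Among the 8 leukocyte genes tested, ITGB2, the shared beta chain of the ICAM1-binding integrins, rose in P18 against NP18 (by 1.06 on the log2 scale, SE 0.28, limma adjusted p = 0.0385), while its ligand ICAM1 was at -0.48. Among the 13 inducing cytokines and receptors tested, IL6 and the receptor chain IL13RA1 rose from NP15 to NP18 (IL6 by 2.25, SE 0.45, limma adjusted p = 0.00822, IL13RA1 by 1.44, SE 0.28, limma adjusted p = 0.00782). IL6 was well above background in 1 of 4 NP15 and 4 of 4 NP18 arrays. In P18 against P15, IL13RA1 rose by 1.00 (SE 0.31, limma adjusted p = 0.0389) and IL1RN, the IL1 receptor antagonist, by 2.19 (SE 0.47, limma adjusted p = 0.00895). IL6 was also called there, but it was well above background in 2 of 4 P18 arrays (0.124 to 0.251 array medians, with a limit of 0.102 to 0.180) and in 2 of 3 P15 arrays (0.0254 to 0.0529, with a limit of 0.0196 to 0.0519), and these limits differ between the groups. None of the 13 was called in P18 against NP18. Of the glycosylation genes, 1 of 9 was called, the sialyltransferase ST3GAL3, lower in P18 than in P15 (-1.17, SE 0.25, limma adjusted p = 0.0087). Of the 12 transcription factors, 1 was called, ATF3, an early stress response gene, higher in P18 than in P15 (2.17, SE 0.44, limma adjusted p = 0.00736).

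**Figure D4:**
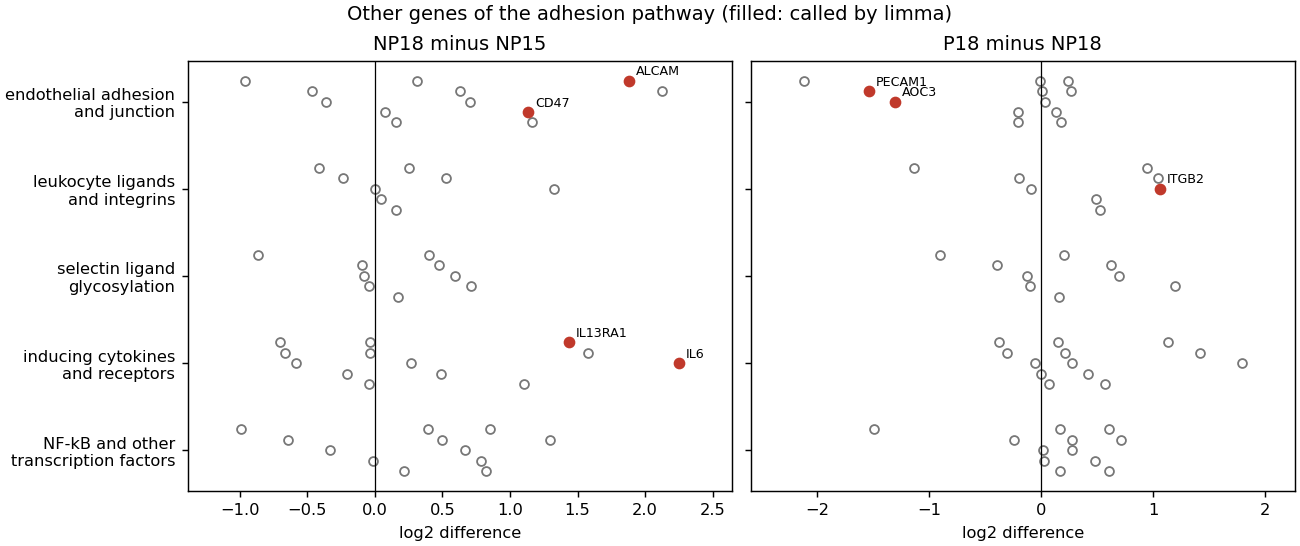
Log2 differences of the 54 tested pathway genes in NP18 minus NP15 (left) and P18 minus NP18 (right), 1 point per gene, by list. Filled points with names were called by limma, open points were not, and vertical offsets within a list only separate the points.

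The probes with the most similar pattern over the 15 arrays were found among 5553 tested probes with a symbol. The highest Pearson correlations of the log2 signals were 0.81 (UGDH) to 0.78 (AKAP5) for SELE, with PTGR2, NPR3 and SLC1A5 between them. For SELP they were 0.86 (NPPC) to 0.82 (TIMP3), with STRA6, ATP1B3 and CLIC4 between. For VCAM1 they were 0.88 (BOLA-DRB2) to 0.87 (OAZ1), with TFAM, WDR12 and ADCY7 between. For ICAM1 they were 0.89 (ST6GALNAC2, DHRS11, CRTC2, ALPL and PRUNE1). No gene was among the first 5 of more than 1 member.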

How the data were processed

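Bovine endometrium from 15 cows was measured on one-color arrays, 1 array per cow. The authors extracted each scan with Agilent Feature Extraction 9.5 and deposited the scanner tables, whose processed signal is an intensity after background subtraction with surrogate values for dim spots. They also deposited a log2 table that equals log2 of that signal minus a constant per array close to the 75th percentile, and it was used as an alternative. The scale differs from the per-chip median that the study's methods describe.

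For the differences, the array's median over 15208 non-control probes was divided out of every processed signal and log2 taken, with no further background correction. They were fitted in R 4.3.3 by limma 3.58.1 (all 15 arrays, a mean for each group, lmFit and eBayes, Benjamini-Hochberg over 13164 probes well above background in at least 3 arrays). A call needed an adjusted p below 0.05 and a fold over 2. Python 3.11.15 with pandas 2.3.3 and numpy 2.4.6 made the tables, and matplotlib 3.10.9 the plots. The script was tested on simulated data. Probes were named through accession, gene ID, symbol or synonym in the RefSeq table of ARS-UCD2.0. A probe described as selectin P ligand (SELPLG) and one for selenoprotein P that lists SELP as an alias were left out of the members.

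The 4 genes and all gene lists were chosen with earlier results of these data known. The text names the members, every pathway gene called in a comparison, MADCAM1, which missed a call by the fold limit, and the 5 probes most correlated with each member. A gene with more than 1 probe is given by its brightest. Median signals per array ran from 315 to 838, 65.6% to 88.3% of probes were well above background, and the number of arrays limits the precision. Each cow is 1 replicate, and the P15 group held 3 arrays. Alternatives were another scaling, background correction, filter, test, variance model, block or set of arrays. A floor at each array's limit for well above background and the level relative to endothelium markers were added after seeing the data. Of the adhesion lists, 1 gene is not reported here.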

Additional observations from a re-analysis of the deposited data

Results flagged for a closer look

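The SELP signal of P18 replicate 3 stood apart from its group at 15.7 array medians, where the gap to the nearest of the other 3 arrays was 0.919 of the whole range of the log2 signals (Dixon's 95% critical value is 0.829 for 4 arrays). It was 1 of 12 groups of the 4 genes examined, and chance gives about 1 such group in 20. By limma's interaction term, the effect of pregnancy differed between day 15 and day 18 for some genes of the lists. Over all 13164 probes 2.72% were called for it. The term was negative for AOC3 (-1.50 on the log2 scale, SE 0.33, adjusted p = 0.0295), SOX18 (-2.09, SE 0.48, adjusted p = 0.0330) and VIM, a stroma marker (-2.05, SE 0.43, adjusted p = 0.0251). It was positive for the trophoblast gene TKDP4 (9.72, SE 2.24, limma adjusted p = 0.0347). TKDP4 was well above background in 4 of 4 P18, 1 of 4 NP15, 1 of 3 P15 and 0 of 4 NP18 arrays. When scan day entered as a random block, 0 of 13164 probes were called for the interaction by limma, and 844 had an unadjusted p below 0.05. That fit cannot separate scan day from group, since no group shared a scan day with another.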

How the results depend on the processing

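Of 615 alternative values, 559 kept their direction, their side of the threshold or, for values with no test, stayed within the spread of replicates. Of the others, array weights made the P15 minus NP15 difference of SELE 3.82 (adjusted p = 0.023), that of ICAM1 -0.21, and the NP18 minus NP15 differences of SELE 6.07 and VCAM1 1.54 (adjusted p = 0.00859). Normexp background correction made NP18 minus NP15 2.82 for SELE and 1.00 for VCAM1 (adjusted p = 0.0463) and P15 minus NP15 -0.0152 for ICAM1, with an exact permutation p of 1.0. The SELP call NP18 minus NP15 was lost with the scan day as a block (1.93) and with the methods' t-test after adjustment (1.94, adjusted p = 0.0987). ICAM1 P18 minus P15 was a call by the 75th percentile (-1.15, adjusted p = 0.0370) and in the authors' log2 table (-1.15, adjusted p = 0.0369). Relative to the endothelium markers VCAM1 was 1.17 in P18 minus P15 and 0.75 in P18 minus NP18, and ICAM1 was -0.18, 0.15 and, on day 15, -0.42. The cause of these moves was not tested.

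Leaving out 1 array at a time gave ranges of 1.67 to 2.17 for SELP and 0.75 to 1.26 for VCAM1 in NP18 minus NP15, -0.54 to 0.19 for SELP in P18 minus P15, and -0.20 to 0.28 for ICAM1 in P15 minus NP15 (exact p 0.5 to 1.0). SELE ranged from 3.26 to 5.01 in NP18 minus NP15, -4.43 to -3.88 in P18 minus NP18, 1.04 to 3.06 in P15 minus NP15 and -2.80 to -1.54 in P18 minus P15. Pathway genes called by leaving out 1 array ranged from 0 to 0 in P15 minus NP15, 3 to 6 in NP18 minus NP15, 5 to 7 in P18 minus P15, against 8 with all arrays (5 without P15 replicate 1, 2 or 3 or P18 replicate 3), and 2 to 4 in P18 minus NP18.

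Pathway genes called were 1 (P15 minus NP15), 7 (NP18 minus NP15), 13 (P18 minus P15) and 6 (P18 minus NP18) with array weights, and 14 in P18 minus P15 without a filter. In NP18 minus NP15 they were 0 by the adjusted t-test, in a fit of only the groups compared and with the scan day block. In P18 minus NP18 they were 5 by the methods' t-test without adjustment and 0 with it, and 0 with the scan day block in P18 minus P15 and P18 minus NP18. Cows with the same replicate number were not paired: over 21 pairs of arrays r of their deviations ran from -0.26 to 0.30, and 3 pairs exceeded 0.1. With the replicate block ICAM1 P15 minus NP15 was -0.0196 and no call of a member changed. Where SELE was near the detection limit, in P18 and in NP15 replicate 2, the size of its differences is limited by background.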
